A study of Homo sapiens with 8 samples.

Results

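Direct targets and feedback regulators of the canonical Wnt pathway were followed in nascent RNA, as the 10 of 23193 gene records whose symbol is *AXIN2*, *NKD1*, *RNF43*, *ZNRF3*, *DKK1*, *NOTUM*, *LGR5*, *TCF7*, *LEF1* or *SP5*. The genes were selected by symbol from a list drawn up with results of these data in view, and how much their levels and differences between the cell lines counted in that choice was not recorded, so their own values and calls are given as a description. The experiment was PRO-seq, which sequences the RNA that engaged RNA polymerases extend in isolated nuclei and so counts transcribing polymerases rather than accumulated mRNA. The cells were HCT116, an established human colorectal carcinoma line, as wild type (WT) or as HIF1A-/-, a derivative in which internal exons of *HIF1A* were disrupted by AAV-mediated homologous recombination. Both lines were kept in normoxia or in hypoxia (1% O2 for 90 min), and DMSO vehicle was given to every culture. Each of the 4 groups (each line at each oxygen level) had 2 libraries, 8 in all. The number of HIF1A-/- clones is not given in the sources used here, so loss of HIF1A cannot be told apart from other differences of the derived line.

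When a Wnt ligand binds a Frizzled receptor and an LRP coreceptor, the cytoplasmic destruction complex of APC, AXIN and GSK3 stops degrading beta-catenin, which enters the nucleus and acts with TCF/LEF factors on target genes. Many of those targets feed back on the pathway at the membrane, outside the cell or in the cytoplasm. The intestinal crypt depends on this signal, and most colorectal carcinomas have it switched on by mutation, in HCT116 through an activating mutation of *CTNNB1*, the beta-catenin gene.

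Reads had been counted per gene in a start site (TSS) region of 551 bp, from 50 bp upstream of the start, and in a gene body region that begins further downstream. Library totals were 18125234 to 23622392 reads in the gene bodies, and TSS totals were 2783581 to 5966348, the lowest TSS total being that of HIF1A-/- normoxia replicate 1. *HIF1A*, the targeted gene, had 130 to 175 CPM (counts per 1000000 reads, on TMM-scaled totals) in its gene body over the 8 libraries, and HIF1A-/- over WT cells in normoxia gave a log2 fold change of 0.07 (adjusted p = 0.991 from edgeR). Its promoter was left in place, so these reads do not check the genotype. Of 6 epithelial markers, 5 exceeded 0.5 RPKM (CPM per kilobase of the region) in every library, and *CDH17* reached only 0.0414. None of 10 fibroblast, leukocyte and endothelial markers exceeded 0.434 RPKM in any library, and *PECAM1*, *COL1A2*, *LUM*, *DCN* and *CD3E* had 0 reads in at least 1 library. Summed over its 3 genes, the endothelial list (mostly *VWF*) had 8.57 to 21.8 CPM in HIF1A-/- and 9.37 to 27.5 in WT libraries, the fibroblast list 1.77 to 5.26 and 2.87 to 6.57, and the leukocyte list at most 1.03 in any library. The epithelial list summed to 860 to 940 CPM in WT and 1044 to 1156 in HIF1A-/- cells in normoxia, and to 942 to 1109 and 1124 to 1233 in hypoxia, without overlap of the lines at either oxygen level, and its part in the differences between the lines was not tested.

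The start regions of *DKK1* and *SP5* are shown because *DKK1* was the gene with a called difference and *SP5* had the most motif matches. The motifs searched were TCF/LEF-type, forms of the letters that beta-catenin's partners recognise. Each window is the 300 bases before the counted TSS, 5′ to 3′ on the gene's strand, from GRCh37, with CTTTGAT or CTTTGAA on either strand in capitals. Other forms of the motif were not searched and stay in lower case. *DKK1* is at chr10:54073740-54074039 (plus strand) and *SP5* at chr2:171571556-171571855 (plus strand), where an annotated *SP5* start lies 9 bp inside the window.
DKK1: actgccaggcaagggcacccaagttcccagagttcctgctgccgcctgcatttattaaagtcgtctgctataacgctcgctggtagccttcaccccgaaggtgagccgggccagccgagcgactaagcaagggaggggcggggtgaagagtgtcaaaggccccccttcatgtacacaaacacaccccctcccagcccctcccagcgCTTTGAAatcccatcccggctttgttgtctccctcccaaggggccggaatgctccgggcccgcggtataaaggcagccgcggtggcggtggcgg
SP5: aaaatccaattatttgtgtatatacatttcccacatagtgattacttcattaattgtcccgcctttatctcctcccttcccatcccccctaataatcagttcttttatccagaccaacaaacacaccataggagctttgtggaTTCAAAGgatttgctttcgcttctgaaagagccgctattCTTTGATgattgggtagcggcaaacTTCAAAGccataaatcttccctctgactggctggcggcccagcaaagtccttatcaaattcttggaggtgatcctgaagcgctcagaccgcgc
Of the forms searched, *DKK1* had 1 match, 94 to 88 bases upstream of the counted TSS, and *SP5* had 3, beginning 157, 118 and 93 bases upstream. *NKD1* had 1, 17 to 11 bases upstream, and the windows of the other 7 genes had none. The *ZNRF3* window precedes an internal start, so it does not describe the letters before that gene's first start. Over the windows of all 23193 genes, CTTTGAT occurred in 2.45%, CTTTGAA in 4.02% and at least 1 of them in 6.34%. The core of the hypoxia response element, searched as ACGTG or GCGTG on both strands, occurred in 51.8% of all windows. It was in those of 6 of the 10 genes (*AXIN2*, *NKD1*, *RNF43*, *LGR5*, *TCF7* and *LEF1*), and neither form was in the *DKK1* or *SP5* window. These matches describe the letters of the windows and show no binding.

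Per length, gene body transcription of the 10 genes spanned a wide range. Averaged over the 8 libraries it was highest for *DKK1* (65.9 RPKM), then *RNF43* (5.20), *AXIN2* (2.28), *ZNRF3* (1.73), *NOTUM* (1.16), *TCF7* (1.10), *SP5* (0.697), *NKD1* (0.547), *LGR5* (0.0325) and *LEF1* (0.00410). The *DKK1* average describes neither line, with 16.0 to 22.8 RPKM in WT and 95.6 to 136 in HIF1A-/- libraries. The lowest *DKK1* library (16.0 RPKM) lay above the highest *RNF43* library (7.40), and the lowest *RNF43* library (4.03) above the highest *AXIN2* library (3.08). *AXIN2* and *ZNRF3* overlapped in their ranges, and each of *TCF7* and *SP5* overlapped with the other and with *NOTUM* and *NKD1*, while the lowest *NOTUM* library (0.687) lay above the highest *NKD1* library (0.652). *LGR5* (at most 0.0567 RPKM) and *LEF1* (at most 0.00724) were far below the rest. Annotated genes overlap the counted gene bodies of 8 of the 10 (all but *DKK1* and *TCF7*), on the same strand for *AXIN2*, *NKD1*, *RNF43*, *ZNRF3* and *LGR5*, so some of their reads may belong to the overlapping gene.

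**Figure D1:**
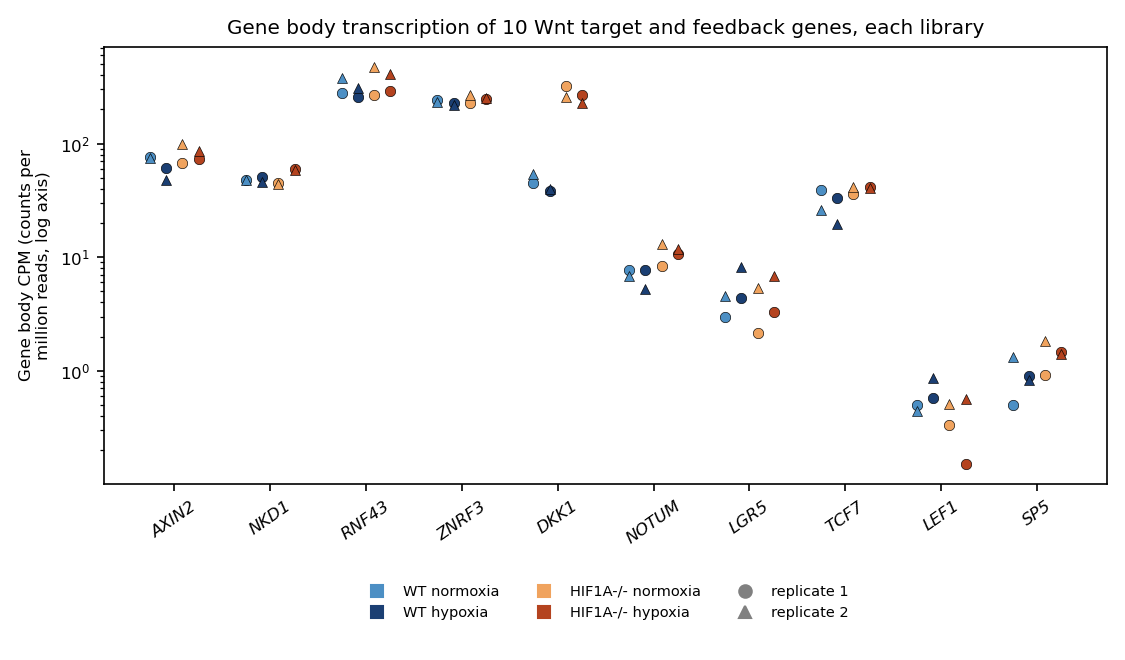
Gene body CPM (log axis) of the 10 genes in each library, coloured by group, with circles for replicate 1 and triangles for replicate 2. The 4 *DKK1* points of HIF1A-/- cells lie at 227 to 324 CPM, above the 4 of WT cells at 38.0 to 54.2, whereas the other genes' groups lie close together or overlap.

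*DKK1* encodes a secreted antagonist that binds the LRP5 and LRP6 coreceptors, and it was the gene of the group that differed most between the lines. In replicates 1 and 2, its gene body (chromosome 10, 54075041 to 54077417, plus strand) had 45.1 and 54.2 CPM for WT cells in normoxia and 38.0 and 40.1 after hypoxia. HIF1A-/- cells had 324 and 258 CPM in normoxia and 266 and 227 in hypoxia. The lowest HIF1A-/- library was thus above every WT library at either oxygen level. The log2 fold change of HIF1A-/- over WT was 2.55 (SE 0.17, 5.86-fold) in normoxia with an adjusted p of 0.000733, and 2.66 (SE 0.17, 6.32-fold) in hypoxia with an adjusted p of 0.000523, both from edgeR's quasi-likelihood test. Over the 14 alternative settings, among them DESeq2, the replicate block and each library left out, the value stayed between 2.42 and 2.72 in normoxia and between 2.55 and 2.75 in hypoxia and was called each time. Each library pools nuclei, so more transcribing cells and more transcription per cell cannot be told apart. *DKK1* had the rank 10 by p among 16686 gene bodies in both comparisons and the ranks 44 and 33 by upward fold change.

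At the *DKK1* start the difference had the same sign and was smaller. TSS reads were 292 and 317 CPM in WT cells in normoxia and 266 and 281 after hypoxia, against 731 and 602 for HIF1A-/- cells in normoxia and 657 and 581 after hypoxia. Again no HIF1A-/- library overlapped a WT library. The log2 fold change was 1.13 (SE 0.15, adjusted p = 0.00404) in normoxia and 1.18 (SE 0.15, adjusted p = 0.00257) in hypoxia, from edgeR. The pausing index, here the TSS read density over the gene body read density, compares the same reads within a library. For *DKK1* it was 6.23 and 5.34 in WT cells in normoxia and 7.62 and 7.30 after hypoxia, and it was 1.29 and 1.99 in HIF1A-/- cells in normoxia and 1.61 and 2.22 after hypoxia. The median over 14494 genes tested in both regions was 9.76 to 11.5 in WT and 5.83 to 9.36 in HIF1A-/- libraries, lowest in replicate 1 of each HIF1A-/- group and below WT in every library. Within each library, 34.4% to 39.0% of those genes had a lower index than *DKK1* in WT cells and 15.2% to 19.1% in HIF1A-/- cells.

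**Figure D2:**
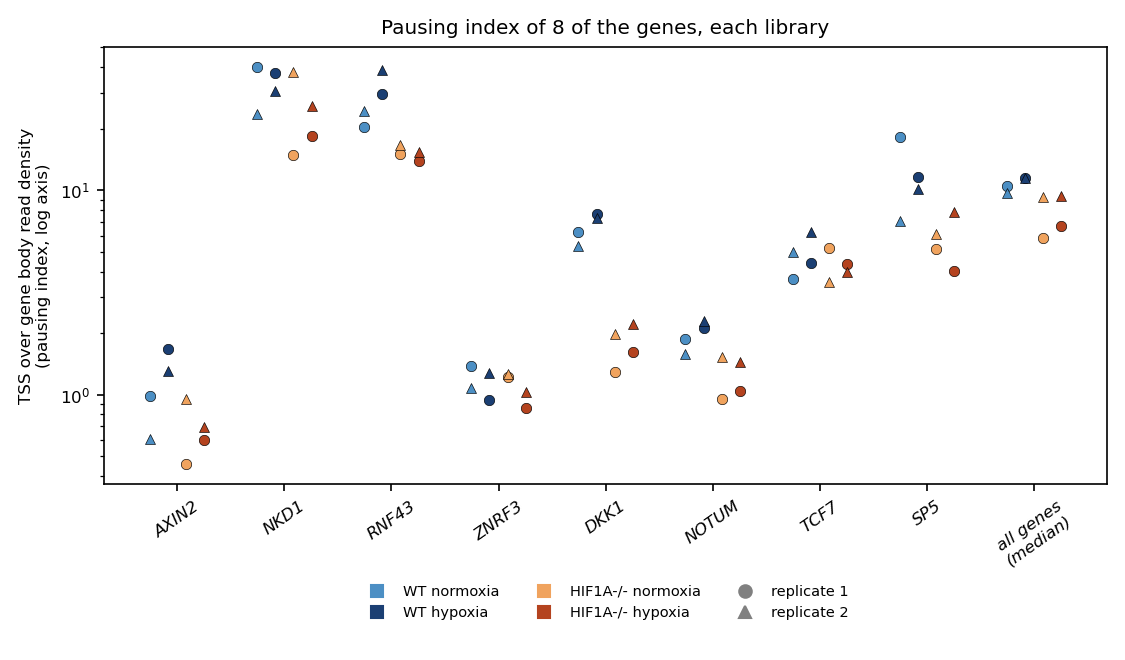
Pausing index (TSS read density over gene body read density, log axis) of 8 of the genes and the median of 14494 genes in each library, coloured by group, circles for replicate 1 and triangles for replicate 2. *LEF1* and *LGR5* are not drawn because of their few TSS reads. *AXIN2*, *ZNRF3* and *NOTUM* had only 11 to 35, 16 to 29 and 12 to 31 TSS reads per library. *DKK1* lies between 5.34 and 7.62 in WT libraries and between 1.29 and 2.22 in HIF1A-/- libraries.

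The genes next to *DKK1* were examined after its values had been seen. *PRKG1-AS1*, a noncoding gene that starts just upstream of *DKK1* on the other strand, had 6.39 and 8.89 gene body CPM in WT cells in normoxia and 5.71 and 9.46 after hypoxia, against 22.8 and 20.1 for HIF1A-/- cells in normoxia and 25.7 and 21.4 after hypoxia. *LINC01468*, on the far side, had 1.34 and 3.48 CPM in WT cells in normoxia and 1.96 and 4.03 after hypoxia, against 25.8 and 25.1 for HIF1A-/- cells in normoxia and 29.4 and 25.7 after hypoxia. Both were thus higher in every HIF1A-/- library than in any WT library. *LINC01468* had a log2 fold change of 3.41 in normoxia (SE 0.46, adjusted p = 0.0159 from edgeR) and 3.19 in hypoxia (SE 0.44, adjusted p = 0.0121), called in all 14 alternatives, and its TSS region had 0 reads in all 8 libraries, which allows up to 0.503 to 1.08 CPM by library. For *PRKG1-AS1* the gene body values were 1.49 (SE 0.29, adjusted p = 0.0603 from edgeR) and 1.63 (SE 0.29, adjusted p = 0.0293). Leaving out replicate 1 or 2 of WT normoxia or replicate 1 of HIF1A-/- normoxia ended the call in normoxia (adjusted p = 0.387, 0.243 and 0.177), and leaving out WT hypoxia or HIF1A-/- hypoxia replicate 1 ended it in hypoxia (0.106 and 0.157). Its TSS region rose by 1.29 and 1.03 (adjusted p = 0.0174 and 0.0429 from edgeR). The protein-coding neighbours *CSTF2T* (0.16 and 0.02, adjusted p = 0.950 and 0.979) and *PRKG1* (0.42 and 0.14, adjusted p = 0.837 and 0.858) were not called, though the replicate block called *PRKG1* in normoxia (adjusted p = 0.0383). *MBL2*, the remaining gene within 1 Mb, had at most 1 read in a library.

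Between the lines, *DKK1* was the only 1 of the 10 gene bodies called at an FDR of 10%, in normoxia and in hypoxia. This holds for the main fit, which has no replicate block. Over all 16686 gene bodies, 0.725% were called higher in HIF1A-/- cells in normoxia (1.78% in either direction) and 1.47% in hypoxia (4.26% in either direction). In TSS regions it was again the only 1 of 9 genes tested, where 0.224% of 15212 were called higher in normoxia (0.657% either way) and 0.440% in hypoxia (1.10% either way). An unadjusted p below 0.05 in edgeR was reached by 1 of the 10 gene bodies in normoxia and 5 in hypoxia. Of all 16686 gene bodies, 1502 and 2628 reached it. In TSS regions 1 and 2 of the 9 genes did, as did 1215 and 2079 of all 15212. The median log2 fold change of the 10 gene bodies was 0.16 in normoxia and 0.44 in hypoxia, beside -0.01 and 0.00 over all gene bodies, and without *DKK1* it was 0.14 and 0.32. The replicate numbers were taken to pair the libraries. With the replicate as a block *AXIN2*, *NKD1*, *NOTUM* and *TCF7* were also called higher in hypoxia, making 5 of 10. That fit called 28.2% of all gene bodies in hypoxia and 10.3% in normoxia, where *DKK1* stayed the only one of the 10.

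**Figure D3:**
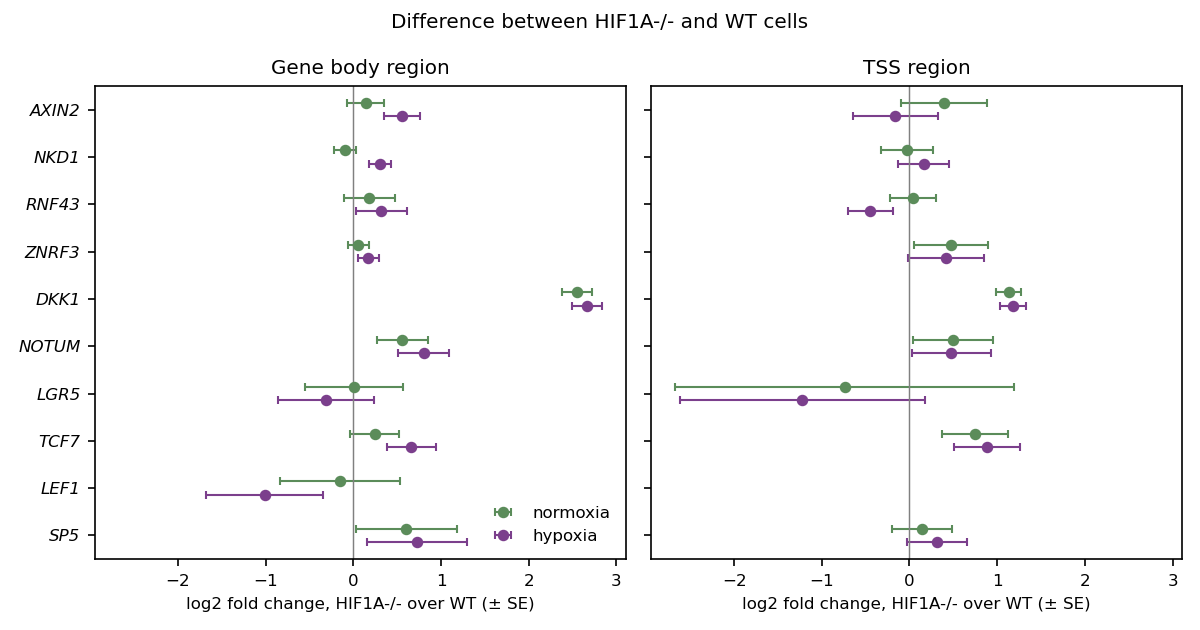
Log2 fold change of HIF1A-/- over WT cells with its standard error, in gene bodies (left) and TSS regions (right), in normoxia (green) and hypoxia (purple), from the edgeR fit without a block. *DKK1* stands at 2.55 and 2.66 in its gene body and at 1.13 and 1.18 at its TSS, and *LEF1* has no TSS value because it had no reads there.

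The cytoplasmic feedback genes *AXIN2* and *NKD1* showed small differences. *AXIN2* encodes a scaffold of the destruction complex and is a widely used readout of the pathway. Its gene body (chromosome 17, 63524680 to 63556739, minus strand) had 76.0 and 74.4 CPM in WT cells in normoxia and 60.8 and 47.8 after hypoxia, against 67.1 and 98.7 for HIF1A-/- cells in normoxia and 73.2 and 86.2 after hypoxia. The WT hypoxia libraries were the lowest, below both HIF1A-/- hypoxia libraries, while the groups in normoxia overlapped. HIF1A-/- over WT in hypoxia was 0.55 (SE 0.21, adjusted p = 0.258 from edgeR, 0.0719 with the replicate block). *NKD1*, whose product binds Dishevelled and dampens the signal, had 47.7 and 47.9 CPM in WT cells in normoxia and 50.9 and 45.6 after hypoxia, against 45.3 and 44.2 for HIF1A-/- cells in normoxia and 59.7 and 59.0 after hypoxia (chromosome 16, 50583241 to 50674771, plus strand). Only the HIF1A-/- hypoxia libraries stood above the others. The log2 fold change of HIF1A-/- over WT in hypoxia was 0.30 (SE 0.13, adjusted p = 0.308 from edgeR, 0.0561 with the block), and -0.10 in normoxia (adjusted p = 0.964). Their pausing indices were far apart, with *AXIN2* at 0.457 to 1.67 and *NKD1* at 14.9 to 40.2 over the 8 libraries. The *AXIN2* index rests on only 11 to 35 TSS reads per library, and the counted *NKD1* start lies 67 bp from the nearest annotated start.

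*RNF43* and *ZNRF3* encode membrane E3 ubiquitin ligases that remove Frizzled receptors from the cell surface. *RNF43* (chromosome 17, 56429860 to 56493942, minus strand) had 277 and 377 gene body CPM in WT cells in normoxia and 258 and 306 after hypoxia, against 268 and 474 for HIF1A-/- cells in normoxia and 292 and 412 after hypoxia. Replicate 2 was the higher library in all 4 groups, and the groups overlapped in each comparison. HIF1A-/- over WT was 0.18 (SE 0.29) in normoxia and 0.32 (SE 0.29) in hypoxia, with adjusted p of 0.984 and 0.646 from edgeR. *ZNRF3* (chromosome 22, 29314377 to 29453476, plus strand) was the steadiest of the group, at 245 and 232 CPM in WT cells in normoxia and 226 and 221 after hypoxia, against 228 and 266 for HIF1A-/- cells in normoxia and 249 and 253 after hypoxia. Its values for HIF1A-/- over WT were 0.05 (SE 0.12) and 0.17 (SE 0.12), with adjusted p of 0.991 and 0.542 from edgeR. The ratio of TSS to gene body signal separated the pair, since *RNF43* had a pausing index of 13.9 to 38.8 and *ZNRF3* of 0.862 to 1.38. The *ZNRF3* TSS that was counted is an internal start, and its TSS region held only 16 to 29 reads. At the TSS of *RNF43*, HIF1A-/- over WT in hypoxia was -0.45 (SE 0.26, adjusted p = 0.476 from edgeR), which was called lower with the replicate block (adjusted p = 0.0550) and without the filter on low counts (0.0993).

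*NOTUM* encodes a secreted enzyme that removes the lipid from Wnt ligands, and *LGR5* a receptor for R-spondins that marks intestinal stem cells. *NOTUM* (chromosome 17, 79910382 to 79918056, minus strand) had 7.73 and 6.79 gene body CPM in WT cells in normoxia and 7.66 and 5.27 after hypoxia, against 8.38 and 13.0 for HIF1A-/- cells in normoxia and 10.7 and 11.8 after hypoxia. Every HIF1A-/- library was above every WT library. The log2 fold change was 0.56 in normoxia (SE 0.29, adjusted p = 0.686 from edgeR) and 0.80 in hypoxia (SE 0.29, adjusted p = 0.240, 0.0668 with the replicate block). *LGR5* (chromosome 12, 71834550 to 71980090, plus strand) had 2.97 and 4.53 CPM in WT cells in normoxia and 4.39 and 8.26 after hypoxia, against 2.15 and 5.34 for HIF1A-/- cells in normoxia and 3.31 and 6.90 after hypoxia, from 45 to 199 reads spread over 146 kb. Replicate 2 exceeded replicate 1 in every group, and no comparison separated the groups. Within same-numbered replicates, hypoxia was above normoxia in all 4 pairs, which the replicate block did not call (*LGR5* had a blocked log2 fold change of 0.72 with an edgeR adjusted p of 0.137 in WT, and 0.47 with 0.564 in HIF1A-/- cells). Its values for HIF1A-/- over WT were 0.00 (SE 0.56) and -0.31 (SE 0.54), with adjusted p of 0.999 and 0.826 from edgeR.

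The transcription factors were *TCF7* and *LEF1*, which bind beta-catenin, and *SP5*, a target that acts as a repressor. *TCF7* (chromosome 5, 133452254 to 133483920, plus strand) had 39.4 and 26.0 gene body CPM in WT cells in normoxia and 33.0 and 19.4 after hypoxia, against 35.8 and 41.7 for HIF1A-/- cells in normoxia and 41.8 and 40.8 after hypoxia. The WT replicates were spread and the HIF1A-/- hypoxia replicates were close, with no overlap of the lines in hypoxia. HIF1A-/- over WT in hypoxia was 0.66 (SE 0.28, adjusted p = 0.311 from edgeR, 0.0614 with the replicate block), and 0.24 (SE 0.28, adjusted p = 0.955) in normoxia. At its TSS the 4 HIF1A-/- libraries (13.0 to 24.6 CPM) were above the 4 WT libraries (8.74 to 11.3). The TSS log2 fold changes were 0.75 (SE 0.38, adjusted p = 0.641 from edgeR) in normoxia and 0.88 (SE 0.38, adjusted p = 0.332, 0.0739 with the block) in hypoxia, and that blocked fit called 14.4% of all TSS regions.

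*SP5* had more reads at its start than in its short gene body (chromosome 2, 171572857 to 171574498, plus strand). The gene body had 0.496 and 1.32 CPM in WT cells in normoxia and 0.899 and 0.830 after hypoxia, against 0.909 and 1.84 for HIF1A-/- cells in normoxia and 1.45 and 1.41 after hypoxia, from 10 to 40 reads, and the TSS region had 11.7 to 19.1 CPM. The lines overlapped in normoxia and lay apart in hypoxia, with 0.60 (SE 0.57, adjusted p = 0.935 from edgeR) and 0.72 (SE 0.57, adjusted p = 0.588). *LEF1* was close to silent, with 3 to 21 gene body reads per library over 120 kb (chromosome 4, 108968700 to 109089111, minus strand), or 0.150 to 0.871 CPM. Its TSS region had 0 reads in all 8 libraries, which allows up to 3 reads, or 0.503 to 1.08 CPM depending on the library's TSS total, counting error only. *LEF1-AS1* overlaps its start on the other strand, the libraries were strand-specific per the labels, and a difference between groups was not detectable at this depth (HIF1A-/- over WT -0.15 and -1.01, adjusted p = 0.991 and 0.513 from edgeR).

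None of the 10 gene bodies was called for hypoxia against normoxia in either line. In WT cells edgeR called 0.431% of all gene bodies. No member reached an unadjusted p below 0.05 in edgeR, as 769 of all 16686 gene bodies did. DESeq2 called 175 gene bodies and the replicate block 5.51% of them, each with 0 of the 10 genes. The WT log2 fold changes ran from -0.47 for *AXIN2* (SE 0.21, adjusted p = 0.897) to 0.76 for *LGR5* (SE 0.55, adjusted p = 0.897), with a median of -0.13 beside -0.02 over all gene bodies. *DKK1* was at -0.35 (SE 0.16, adjusted p = 0.897 from edgeR) in WT and -0.24 (SE 0.16) in HIF1A-/- cells, the WT hypoxia libraries lying below the WT normoxia libraries. In HIF1A-/- cells 0% of gene bodies were called. The members' median there was 0.04, and *NKD1* alone had an unadjusted p below 0.05 (log2 fold change 0.41, SE 0.13), with an adjusted p of 1 from edgeR. Over all 16686 gene bodies, 347 had an unadjusted p below 0.05 there. DESeq2 called 8 gene bodies in HIF1A-/- cells and again 0 of the 10 genes.

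**Figure D4:**
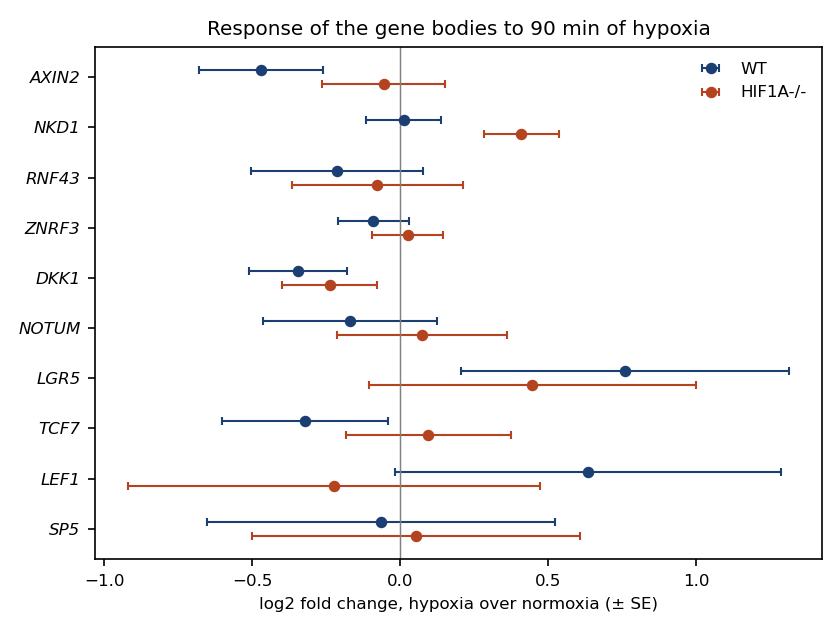
Log2 fold change of hypoxia over normoxia in the gene bodies of the 10 genes, with its standard error, in WT (blue) and HIF1A-/- cells (red). *AXIN2* is at -0.47 in WT and -0.06 in HIF1A-/- cells and *NKD1* at 0.01 and 0.41, and no value of either line was called.

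The difference between the lines in their response to hypoxia (interaction) was called for 0.0539% of gene bodies and for 0 of the 10 genes. None of the 10 had an unadjusted p below 0.05 in edgeR, as 227 of all 16686 gene bodies did. The largest interaction values of the 10 were -0.86 for *LEF1* (SE 0.95, adjusted p = 1.00 from edgeR) and 0.42 for *TCF7* (SE 0.40). *AXIN2* had 0.41 (SE 0.29) and *NKD1* 0.40 (SE 0.18). In TSS regions, hypoxia gave calls for 0.0460% of regions in WT and 0% in HIF1A-/- cells, and the interaction for 0.00657%. No tested member was among them or had an unadjusted p below 0.05 in edgeR. Of all 15212 regions, 611, 135 and 180 had one in WT, in HIF1A-/- cells and for the interaction. DESeq2 called 15, 0 and 3 regions there, with 0 of the 9 tested members.

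Other genes of the pathway were taken from a list of 102, of which 78 gene bodies were tested, in 6 roles from ligands to further targets. Between the lines, 7 of them were called in normoxia, 3 higher and 4 lower in HIF1A-/- cells, and 8 in hypoxia, 4 higher and 4 lower, where 1.78% and 4.26% of all gene bodies were called. Their medians over the 78 were 0.08 and 0.07, close to those of all gene bodies. The counts depended on single libraries. Leaving out any library of the compared groups lowered them, and it lowered the number of calls over all gene bodies as well. In TSS regions 75 of the listed genes were tested. There 2 were called in normoxia, 0 higher and 2 lower in HIF1A-/- cells, where 0.657% of all regions were called. In hypoxia 3 were called, 1 higher and 2 lower, where 1.10% of all were.

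*BMP4*, a growth factor gene used as a beta-catenin target, was 72.8 ± 0.109 CPM (SD, n = 2) in WT and 227 ± 30.5 in HIF1A-/- cells in normoxia, and 48.8 ± 6.89 and 205 ± 18.0 in hypoxia. The log2 fold changes were 1.64 (adjusted p = 0.00298 from edgeR) and 2.07 (adjusted p = 0.00117). *WLS*, which carries Wnt ligands to the cell surface, was 97.8 ± 5.12 and 268 ± 39.3 CPM in normoxia, with 1.45 (adjusted p = 0.00342 from edgeR), and 1.31 (adjusted p = 0.00444) in hypoxia. The gene bodies of *BMP4* and *WLS* were called in all 14 alternatives in both comparisons. At the TSS, no tested gene of the role of *BMP4* (further targets) exceeded a log2 fold change of 0.48 in normoxia and 0.67 in hypoxia. In the role of *WLS* (ligands and ligand export) the highest TSS values were 0.94 and 2.48, and 0 genes of that role were called higher. *KREMEN2*, a receptor for DKK proteins, was higher by 1.00 and 0.91 (adjusted p = 0.0487 and 0.0455 from edgeR), and the ligand gene *WNT9A* by 1.36 in hypoxia (adjusted p = 0.0401) with 1.09 in normoxia (adjusted p = 0.139, 0.00150 with the replicate block).

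Lower in HIF1A-/- cells were the ligand genes *WNT3A* and *WNT3*, the crypt transcription factor gene *SOX9* and the adhesion receptor gene *CD44*. *WNT3A* fell from 9.17 ± 0.143 CPM (SD, n = 2) in WT to 2.07 ± 1.10 in HIF1A-/- normoxia, and its TSS region from 14.7 to 1.19 CPM. Its gene body log2 fold changes were -2.14 (adjusted p = 0.0453 from edgeR) and -2.09 in hypoxia (adjusted p = 0.0325), and *SOX9* had -1.93 in both (adjusted p = 0.0340 and 0.0239). *CD44* had -1.05 and -0.86 (adjusted p = 0.0307 and 0.0402 from edgeR) and *WNT3* -0.91 and -0.69 (adjusted p = 0.0311 and 0.0525). The calls of *KREMEN2*, *WNT9A*, *WNT3A*, *WNT3*, *SOX9* and *CD44* were each lost when some single libraries were left out, with adjusted p of up to 0.349, 0.265, 0.286, 0.368, 0.254 and 0.249. A fit of the 4 compared libraries alone also lost *KREMEN2* in both comparisons (adjusted p = 0.150 and 0.113) and *WNT3* in hypoxia (0.111).

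Among the core components, *CTNNB1*, *APC*, *AXIN1* and *TCF7L2* were not called between the lines. *CTNNB1* had 121 ± 5.11 CPM in WT and 136 ± 5.39 in HIF1A-/- normoxia (SD, n = 2), and 108 ± 7.77 and 135 ± 0.230 in hypoxia. Its log2 fold changes were 0.17 (adjusted p = 0.845 from edgeR) and 0.32 (adjusted p = 0.246, 0.0431 with the replicate block). *APC* had -0.09 and -0.12, *AXIN1* 0.03 and 0.26, and *TCF7L2* -0.04 and -0.15, with adjusted p of 0.445 or more. No listed gene was called for hypoxia in either line or for the interaction. With the replicate block, which called 5.51% of gene bodies in WT hypoxia, *GSK3A* and *BMP4* were lower there (adjusted p = 0.0738 and 0.0244, against 0.897 and 0.551 from edgeR without it).

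**Figure D5:**
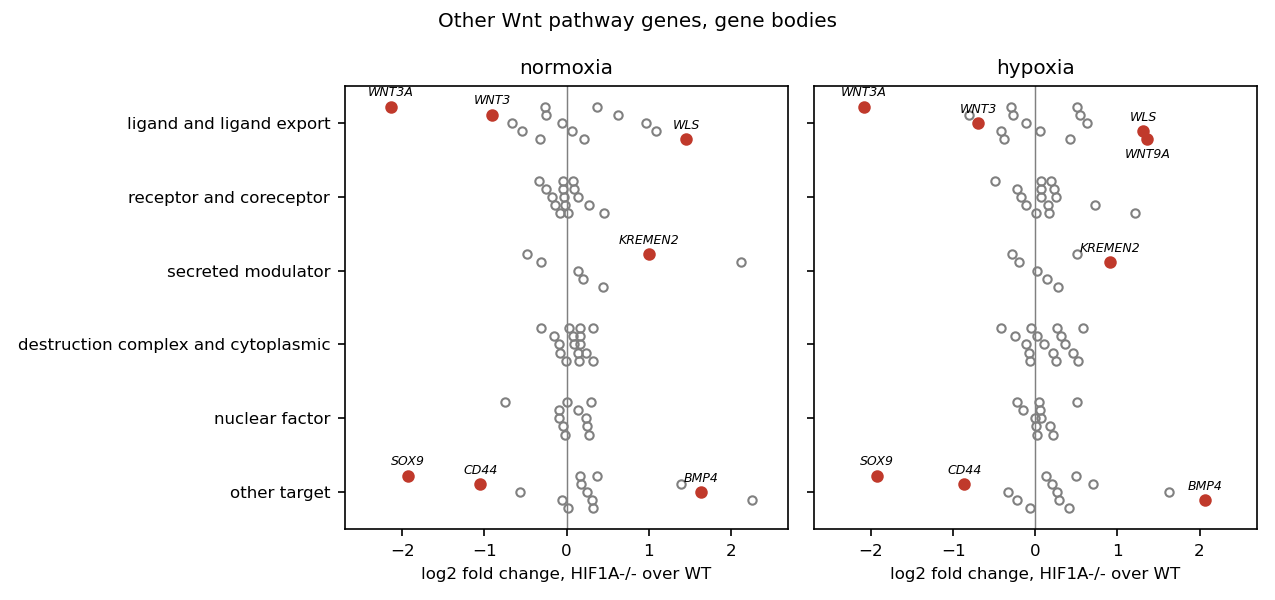
Log2 fold change of HIF1A-/- over WT cells for the 78 tested gene bodies of the pathway list, by role, in normoxia (left) and hypoxia (right). Filled red points are called at an FDR of 10% and named, 7 in normoxia and 8 in hypoxia, and open points are not called.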

How the data were processed

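The deposited values are raw counts per gene, which the authors made by aligning PRO-seq reads to GRCh37 with HISAT2 2.1.0 and counting with featureCounts (Subread 1.6.2) in 1 TSS and 1 gene body region per RefSeq gene. A gene with several active starts is therefore represented by one of them, and whether counting used strand is not given in the sources used here. From the counts, regions above 0.5 CPM in at least 2 libraries were tested with edgeR 4.0.16 (TMM, quasi-likelihood, 1 fit of the 4 group means per region, Benjamini-Hochberg over all regions tested, FDR 10%), on scripts tested on simulated data. CPM and RPKM use TMM-scaled totals. Each SE was derived from the test, as the absolute log2 fold change over the square root of its F statistic. Same-numbered replicates deviated together (correlations of 0.484 to 0.790 in gene bodies, 0.216 to 0.519 in TSS regions), so the numbers, shared in the labels, were taken to pair the libraries. The main fit leaves this pairing out, so its SE and p-values include the spread between replicate numbers. Its common dispersion in gene bodies was 0.0376, against 0.0110 with the replicate as a block. The fit with that block is given where a call changes. DESeq2 1.42.0, other filters and normalizations, the compared libraries alone and each library left out were alternatives. Replicates are separate nuclei samples, so with 2 per group p-values rest on few libraries. The genes, the pathway list and the markers were chosen with earlier results of these data known. Named pathway genes are those called with the smallest p and no overlap of the groups, at most 5 in each direction and comparison, plus *CTNNB1*, *APC*, *AXIN1* and *TCF7L2*. *GSK3A* is named outside this rule, as a call of the fit with the replicate block.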

Additional observations from a re-analysis of the deposited data

How the results depend on the processing

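With the replicate block, the count of the 10 genes called between the lines in hypoxia went from 1 to 5 in gene bodies, where the block called 28.2% of all. In TSS regions the count went from 1 to 3, where the block called 14.4% of all. The block also moved the pathway list from 0 to 2 of 78 called gene bodies in WT hypoxia, where it called 5.51% of all. Between the lines it moved the list from 7 to 13 of 78 in normoxia and from 8 to 28 of 78 in hypoxia. Over all gene bodies it called 10.3% and 28.2% in these 2 comparisons. Leaving out 1 library at a time gave 2 to 8 such calls in normoxia and 2 to 9 in hypoxia, the lowest without replicate 2 of WT normoxia and of WT hypoxia. Over 127 single-gene values, 1681 comparisons with an alternative kept the call, 15 gained one, 50 lost one and 0 reversed a called direction. In 108 of them an uncalled value had the other sign. The replicate block changed no call of a named gene besides those given. With 2 libraries per group and 10 to 40 reads for *SP5*, 3 to 21 for *LEF1*, small differences were not detectable in those genes. The cause of these changes was not tested.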
